A study of Mus musculus with 4 samples.

Results

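The BCL2 family decides whether the mitochondrial outer membrane of a cell stays closed or opens during apoptosis. Its pro-survival proteins hold the death-promoting proteins in check. Effector proteins form the pores through which cytochrome c leaves the mitochondrion, and BH3-only proteins sense damage or lack of growth factors and either activate the effectors or occupy the pro-survival proteins. In lymphoid cells the BH3-only protein encoded by Bcl2l11 and the pro-survival proteins encoded by Bcl2 and Mcl1 are known for setting how readily cells die.

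Expression of 10 genes of this family was examined out of 19938 genes measured. The members were chosen by name, as all probe sets that the platform's annotation pairs with the symbols Bcl2, Bcl2l1, Bcl2l2 and Mcl1 (4 pro-survival genes), Bak1 (an effector) and Bid, Bad, Bik, Bmf and Bcl2l11 (5 BH3-only genes). Each member had 1 probe set, which gave 10 probe sets in all, and 0 of them listed more than 1 gene symbol. The effector and the BH3-only genes are called the 6 pro-death members below.

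The cells were Dalton's lymphoma ascites (DLA) cells, a transplantable mouse tumour that grows freely in the peritoneal fluid, carried by male Swiss albino mice aged 4 to 5 months. The irradiated group came from mice given 2 Gy of electron radiation to the whole body 8 days after transplantation, with cells taken 48 h later. The control group came from tumour-bearing mice without irradiation. The day on which control cells were taken is not in the labels, so the age of the tumour may differ between the groups, and its part in the differences was not tested. Each group had 2 arrays, labelled biological replicates 1 and 2. The labels do not say whether several mice were pooled for a replicate, so p-values measure only the spread between these samples.

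The values were log2 probe set intensities, and array medians lay between 6.43 and 6.46. The irradiated arrays differed from each other more than the control arrays did, with an SD of the difference across all genes of 0.362 against 0.167. The lymphoid label was set against markers. The 7 T-cell markers measured had mean intensities of 4.38 to 6.19 and the 6 B-cell markers of 4.01 to 5.94, all below the median of all genes (6.68). Of 6 pan-leukocyte markers, 5 also lay below that median and Lcp1 lay at 11.56. Of 9 trophoblast and epithelial markers, 7 lay at or above it, up to 13.85 for Krt8, and the others, Elf5 and Cdh1, at 5.41 and 6.15. Probe sets differ in brightness, so these intensities describe signal and do not settle which cells were present. In RNA from a mixed cell suspension, fewer cells of a type and less RNA per cell cannot be told apart.

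No member differed between irradiated and control cells beyond the replicate error. With limma's moderated test, 0 of 10 members passed a Benjamini-Hochberg adjusted p of 0.05, against 0.00502% of all genes. At an unadjusted p under 0.05 the limma count was also 0 of 10, against 10.3% of all genes, and with a 1.5-fold difference required as well it was 0 of 10, against 2.37%. The adjusted p-values of the members ran from 0.491 to 0.991. Every limma 95% interval held 0 and lay inside a 2-fold change in either direction. The outermost bounds were −0.86, for Bcl2l1, and 0.67, for Bcl2l11, and changes within the intervals were not detectable with 2 arrays per group.

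The members whose arrays did not overlap were Bcl2l11 and Bid, higher in both irradiated arrays, and Bcl2l1, lower in both. Irradiated arrays lay above the controls for 2 of 10 members, against 17.8% of all genes, and below them for 1 of 10, against 23.9% of all genes. Together 3 of 10 members did not overlap, against 41.7% of all genes, which is no excess over the background. The promoters of these 3 genes are given here because their arrays were the ones that separated. Each is the RefSeq window of 250 bases before to 50 after a start site on build GRCm38.p6, written 5′ to 3′ in the gene's own direction. Capitals mark GTAAACA, the core motif of FOXO factors, which are known activators of Bcl2l11. For Bcl2l11, on the plus strand at chr2:128125788-128126087, the window is the more upstream of its annotated starts. For Bid it is chr6:120916775-120917074 on the minus strand. For Bcl2l1, on the minus strand at chr2:152831679-152831978, it is the most upstream listed.
Bcl2l11: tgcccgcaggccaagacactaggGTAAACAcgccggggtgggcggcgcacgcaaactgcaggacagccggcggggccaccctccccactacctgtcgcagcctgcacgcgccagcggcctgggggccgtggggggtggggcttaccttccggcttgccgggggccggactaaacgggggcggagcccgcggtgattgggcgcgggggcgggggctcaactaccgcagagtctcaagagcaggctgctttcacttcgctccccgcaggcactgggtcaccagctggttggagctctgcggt
Bid: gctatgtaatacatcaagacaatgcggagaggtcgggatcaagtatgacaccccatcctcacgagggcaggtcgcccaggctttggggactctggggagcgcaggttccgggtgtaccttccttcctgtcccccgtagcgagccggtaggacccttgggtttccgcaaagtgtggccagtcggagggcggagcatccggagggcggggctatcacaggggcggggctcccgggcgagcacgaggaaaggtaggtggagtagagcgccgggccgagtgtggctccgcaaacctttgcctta
Bcl2l1: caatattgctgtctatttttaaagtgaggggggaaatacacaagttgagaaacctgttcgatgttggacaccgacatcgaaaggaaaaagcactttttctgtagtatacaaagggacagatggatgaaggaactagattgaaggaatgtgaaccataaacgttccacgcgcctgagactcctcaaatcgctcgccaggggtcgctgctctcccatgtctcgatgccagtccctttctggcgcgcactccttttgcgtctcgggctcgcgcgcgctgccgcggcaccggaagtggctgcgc

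The FOXO motif began 227 bases before the Bcl2l11 start. It occurred on either strand in 3.65% of 32851 windows of the same length. Of 15 windows listed for 9 members, 1 held any of the 5 motifs searched. The share of all windows that held any of the 5 was not counted. The other motifs included TTCNNNGAA (STAT, in 8.30% of all windows), TGACGTCA (cAMP response element, 1.79%) and TGATGCAA (CHOP and ATF4, 0.895%). The last was CACGTG (the E-box of MYC, 7.15%). The search covered both strands and allowed matches to overlap. A match is a run of letters and does not show binding.

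Among the pro-survival genes, Bcl2l1 had the largest difference. It encodes BCL-XL, which holds effectors and BH3-only proteins in check at the mitochondrion. It measured 9.43 and 9.02 in irradiated cells, against 9.73 and 9.57 in control cells. Both irradiated arrays were lower than both controls, by an unequal amount. The log2 difference was −0.43 (limma 95% interval −0.86 to 0.01), a 1.34-fold lower mean, with an adjusted p of 0.491 over all genes. Of all genes, 7.80% had a difference at least this large in size.

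Mcl1 encodes a short-lived pro-survival protein whose level is set largely by its turnover. It measured 9.97 and 9.80 in irradiated cells, against 9.90 and 9.88 in control cells. The control values lay between the irradiated ones, and the group means were 9.89 ± 0.12 in irradiated and 9.89 ± 0.01 in control cells (log2, SD, n = 2 arrays each). The limma interval of its difference ran from −0.31 to 0.30.

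Bcl2, the founding member of the family, measured 8.03 and 8.01 in irradiated cells, against 7.92 and 8.05 in control cells. The irradiated values lay within the control range. Its difference was 0.04 (limma 95% interval −0.26 to 0.33). Bcl2l2, which encodes BCL-w, measured 7.35 and 7.22 in irradiated cells, against 7.41 and 7.34 in control cells. One irradiated array lay within the control range, and the difference was −0.09 (limma 95% interval −0.39 to 0.21).

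**Figure D1:**
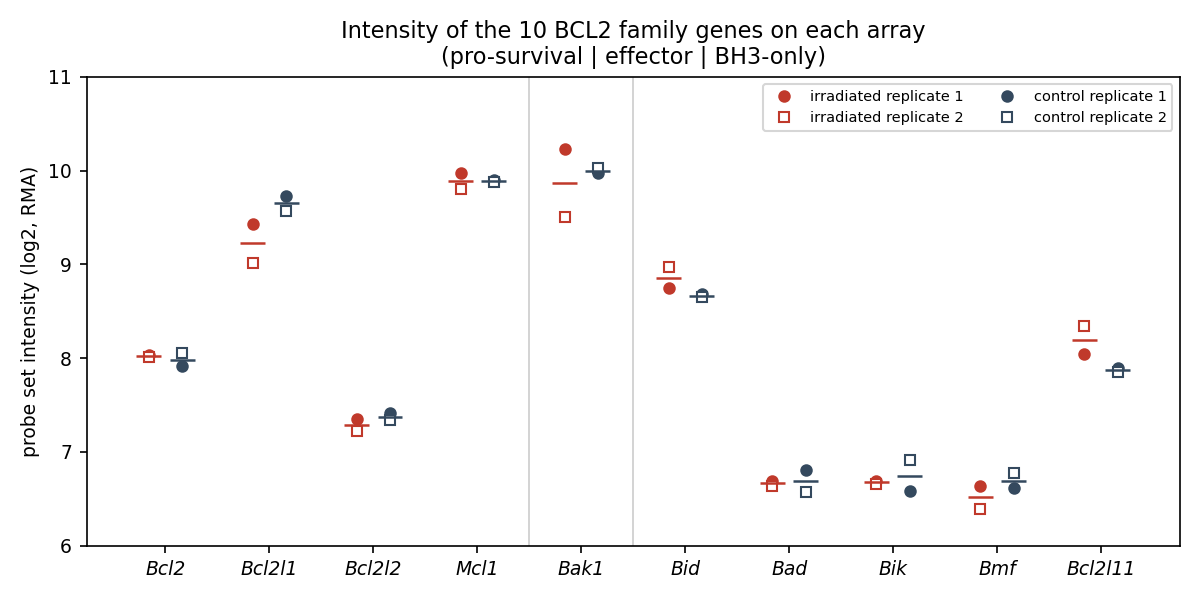
Probe set intensity (log2, RMA) of each of the 10 genes on every array, with irradiated arrays (red) left of control arrays (blue), circles for replicate 1, open squares for replicate 2 and bars for group means. The arrays separate by group for Bcl2l1, Bid and Bcl2l11, and Bak1 has the widest gap between irradiated arrays (10.23 and 9.51).

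The effector gene Bak1 showed the largest disagreement between irradiated replicates. Its protein sits in the outer membrane and forms pores once activated. It measured 10.23 and 9.51 in irradiated cells, against 9.97 and 10.03 in control cells, so that one irradiated array was above both controls and the other below them. The gap between irradiated arrays was 0.72, a size that 4.02% of all genes reached, and the gap between controls was 0.06. The difference of means was −0.13 (limma 95% interval −0.74 to 0.48). Leaving out irradiated replicate 2 gave 0.23, and leaving out irradiated replicate 1 gave −0.49, so the direction for Bak1 rested on a single array.

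Of the BH3-only genes, Bcl2l11 had the largest difference. It encodes BIM, which binds all pro-survival proteins and can activate the effectors. It measured 8.04 and 8.34 in irradiated cells, against 7.90 and 7.85 in control cells. Both irradiated arrays were higher than both controls. The log2 difference was 0.32 (limma 95% interval −0.04 to 0.67), a 1.24-fold higher mean, with an adjusted p of 0.526 over all genes. A difference at least this large in size was found for 16.3% of all genes.

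Bid encodes a protein that caspase-8 cleaves into an activator of the effectors, which links death receptors to the mitochondrion. It measured 8.75 and 8.97 in irradiated cells, against 8.68 and 8.65 in control cells. Both irradiated arrays were higher than both controls, and irradiated replicate 1 lay closer to the controls than to irradiated replicate 2. The difference was 0.20 (limma 95% interval −0.13 to 0.52, adjusted p = 0.636), and 35.7% of all genes had one at least this large in size.

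Bmf, whose protein is released from the cytoskeleton under stress, measured 6.64 and 6.39 in irradiated cells, against 6.61 and 6.78 in control cells. One irradiated array lay within the control range and the other below it. Its difference was −0.18 (limma 95% interval −0.54 to 0.18).

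Bad and Bik were the members with the widest gaps between control arrays. Bad, whose protein is held inactive by phosphorylation, measured 6.69 and 6.64 in irradiated cells, against 6.81 and 6.57 in control cells. Bik, whose protein acts at the endoplasmic reticulum, measured 6.69 and 6.66 in irradiated cells, against 6.58 and 6.91 in control cells. Both genes had their irradiated values inside the control range. The differences were −0.03 for Bad (limma 95% interval −0.36 to 0.31) and −0.07 for Bik (−0.44 to 0.30).

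**Figure D2:**
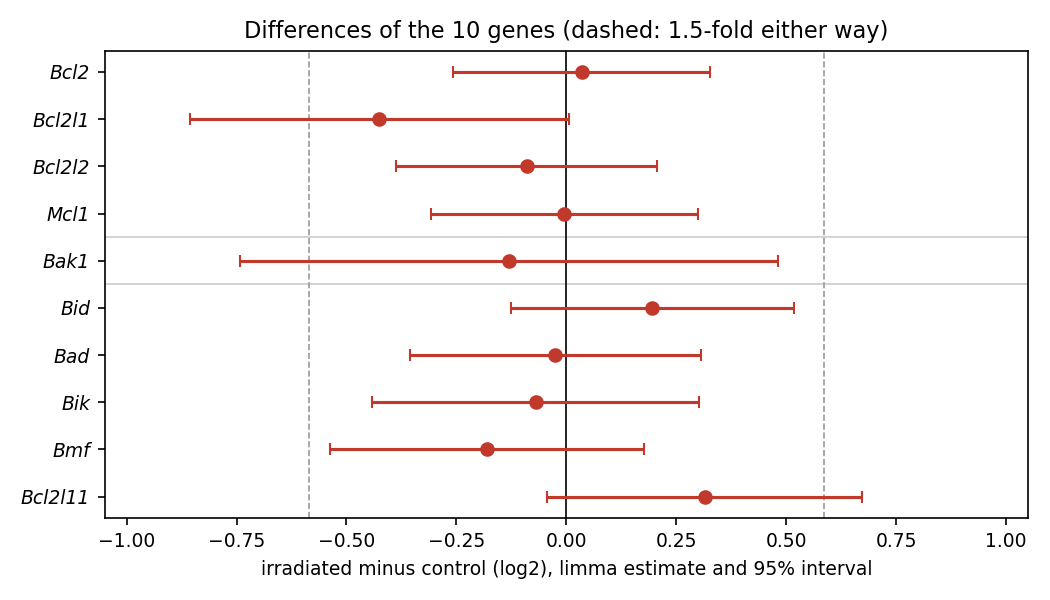
Irradiated minus control difference (log2) of each gene with its limma 95% interval, pro-survival genes at the top, Bak1 below them and BH3-only genes at the bottom; dashed lines mark 1.5-fold. All 10 intervals cross 0, and those of Bcl2l1 and Bcl2l11 do so with the least margin, on opposite sides.

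The design allowed the pro-survival and pro-death members to be set against each other as changes, though not as levels, since probe sets of different genes have different brightness. The median log2 difference was −0.05 over the 4 pro-survival members and −0.05 over the 6 pro-death members, beside −0.03 over all genes. The direction was positive for 1 of 4 pro-survival members and 2 of 6 pro-death members. Of all 19938 genes, 8662 were higher and 11055 lower. After subtraction of each gene's control mean, the pro-survival median minus the pro-death median was −0.03 and −0.06 in the irradiated arrays, against 0.03 and −0.03 in the control arrays. The control values mirror each other because they are centred on their own mean, so they show only the size of the gap between the control arrays. No test was run on this contrast of the classes, so the medians only describe these arrays.

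The classes were also taken apart into pairs of single genes. For each of the 24 pairs of a pro-death with a pro-survival member, the change of the pro-death gene minus that of the pro-survival gene was taken within each array, relative to the control mean. It was positive for 14 pairs and negative for 10, with a median of 0.11. The 6 pairs with Bcl2l1 were all positive, from 0.25 to 0.74, and they share the lower value of that gene. Bcl2l11 relative to Bcl2l1 was 0.39 and 1.10 in the irradiated arrays, against −0.06 and 0.06 in the control arrays. Relative to Mcl1, Bcl2l11 was 0.09 and 0.56 in the irradiated arrays, against 0.02 and −0.02 in the control arrays. These pairs were singled out after their values were seen and carry no test.

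Irradiated replicate 2 departed further from the controls than irradiated replicate 1 for most members. This held for 9 of 10 members by the distance to the control mean, and for 62.1% of all genes. Bcl2l1 was 0.63 below the control mean in irradiated replicate 2 and 0.22 below it in replicate 1. Bcl2l11 was 0.47 and Bid 0.31 above their control means in irradiated replicate 2, against 0.17 and 0.09 in irradiated replicate 1. Without irradiated replicate 1, 4 members (Bcl2l1, Bak1, Bid and Bcl2l11) had an unadjusted limma p under 0.05, and 0 passed the adjusted threshold; that fit took its spread from the control pair only, and 29.7% of all genes had such a p.

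**Figure D3:**
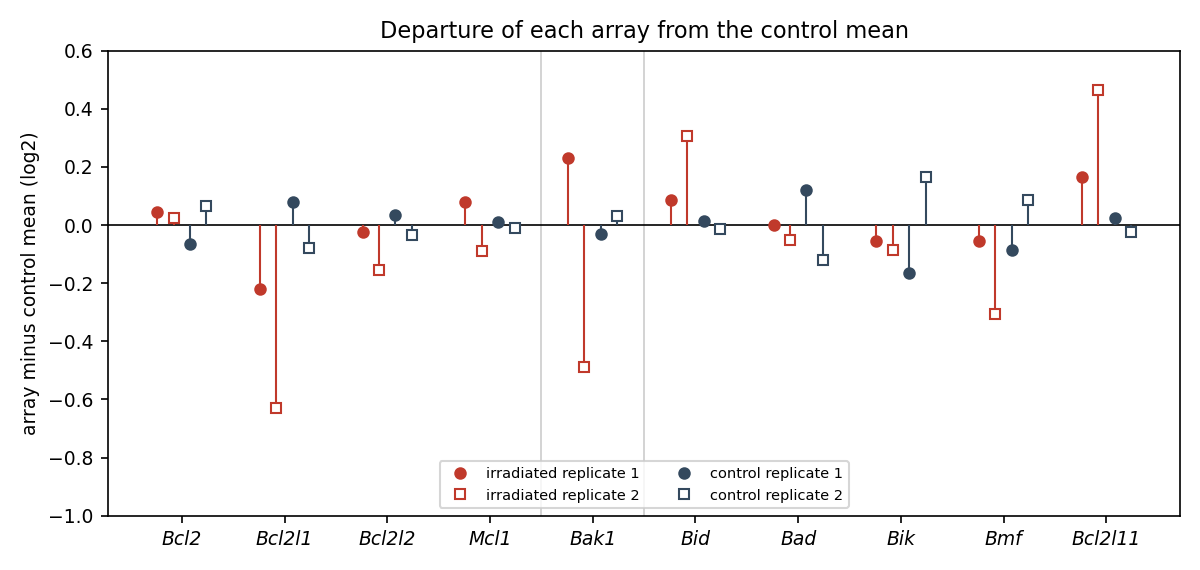
Each array's log2 value minus the control mean of the same gene, irradiated arrays in red left of control arrays in blue, circles for replicate 1 and open squares for replicate 2. Irradiated replicate 2 departs furthest, to −0.63 for Bcl2l1 and to 0.47 for Bcl2l11, and the irradiated arrays lie on opposite sides of 0 for Bak1.

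Cell type markers also differed on these arrays. Of 10 neutrophil markers, 8 were lower and 2 higher in irradiated cells, with a median difference of −0.73. At an unadjusted p under 0.05 in limma 6 were lower and 1 higher, against 5.1% and 5.21% of all genes. Ly6g, a surface marker of neutrophils, measured 12.04 and 11.89 in irradiated cells, against 8.87 and 8.82 in control cells (log2 difference 3.12), and it was the 1 gene of 19938 past the adjusted threshold (limma adjusted p = 0.0117). Of the other 9 markers in the list, 8 were lower, among them Retnlg (−2.60) and Cxcr2 (−1.16), and 1 was higher. The average log2 level of the list was 5.98 and 5.98 in irradiated arrays, against 6.36 and 6.51 in control arrays. Without Ly6g, a choice made after the values were seen, it was 5.31 and 5.32 in irradiated arrays, against 6.08 and 6.26 in control arrays, with a median difference of −0.80.

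Of 9 trophoblast and epithelial markers, 7 were lower and 2 higher, with differences from −1.19 to 0.37 and averages of 9.42 and 8.97 in irradiated arrays, against 9.54 and 9.50 in control arrays. At an unadjusted p under 0.05 in limma, 3 were lower and 1 higher, against 5.1% and 5.21% of all genes. Krt7, Epcam and Krt18 were lower (−1.19, −0.61 and −0.60), and Eomes was higher (0.37). The lowest average of that list was in irradiated replicate 2. Macrophage markers differed in both directions, with Mrc1 and Lyz2 higher (0.90 and 0.57) and Csf1r lower (−0.52) at that threshold and a median of −0.02 over 8 genes. So did pan-leukocyte markers, with Lcp1 higher (0.63), Cd52 lower (−0.76) and a median of −0.12 over 6 genes. Of 6 erythroid markers, Alas2 and Klf1 were lower (−0.70 and −0.32) at that threshold, and the median was −0.11. T-cell markers had differences from −0.47 to 0.13 (median −0.14) and B-cell markers from −0.23 to 0.50 (median −0.05), with 0 at an unadjusted limma p under 0.05. The part of cell composition in the members' values was not tested.

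The other listed genes of the family, which like the members do not include Bax, showed few differences. Of 12 such genes measured by a probe set of their own, out of 15 listed, 4 were higher and 8 lower, with a median of −0.09. At an unadjusted p under 0.05 there was 1 that was higher, Bcl2l15 (4.98 and 5.12 in irradiated cells, against 4.63 and 4.65 in control cells), and 0 that were lower, against 5.21% and 5.10% of all genes. Pmaip1 and Bbc3, BH3-only genes known as p53 targets, had differences of −0.03 and −0.14 without passing (limma adjusted p = 0.963 and 0.707).

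Inhibitors of apoptosis proteins had the largest median among the pathway lists. All 5 were higher in both irradiated arrays, with a median of 0.40, where 17.8% of all genes lay above the controls in this way. Of the 5, 4 had an unadjusted limma p under 0.05, against 5.21% of all genes in this direction, while 0 passed the adjusted threshold. Birc3, which encodes a ubiquitin ligase of the TNF receptor complex, measured 7.80 and 7.91 in irradiated cells, against 7.20 and 7.28 in control cells (log2 difference 0.62, limma adjusted p = 0.301). Birc5, which encodes survivin, a protein of the mitotic chromosomal passenger complex, measured 9.54 and 8.99 in irradiated cells, against 8.70 and 8.60 in control cells. Xiap, the direct caspase inhibitor, and Birc2 differed by 0.40 and 0.35. Leaving out 1 array, an alternative added after the data were seen, gave a median between 0.25 and 0.46. Since all 5 were higher in both irradiated arrays, leaving out 1 array could not turn a sign, so this is no separate support. At an unadjusted p under 0.05 there were 4 of these genes without irradiated replicate 1 and 2 without irradiated replicate 2, in fits where 29.7% and 15.3% of all genes passed. There was 1 without either control array, where 1.91% and 2.06% of all genes passed.

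Downstream of the family, 10 caspases and mitochondrial death factors had a median of 0.09, 6 higher and 4 lower. At an unadjusted p under 0.05, 2 were higher and 0 lower in limma, against 5.21% and 5.1% of all genes. Aifm1, a mitochondrial flavoprotein that can move to the nucleus in dying cells, differed by 0.40, and Htra2, a mitochondrial protease, by 0.33. Casp8, the enzyme that cleaves the Bid protein, measured 11.45 and 11.50 in irradiated cells, against 11.23 and 11.37 in control cells (difference 0.18, limma adjusted p = 0.643).

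Genes acting on the members differed in both directions. Among 11 kinases and ubiquitin enzymes, 7 were higher and 4 lower. Akt1, whose kinase phosphorylates the Bad protein, was higher by 0.37 and Pim3 was lower (log2 difference −0.53) at an unadjusted p under 0.05. By this limma threshold 5.21% of all genes were higher and 5.1% lower. Among 11 transcription factors, 4 were higher and 7 lower, and Myc and Atf4 were lower (−0.68 and −0.36) at the same threshold. Foxo3 and Foxo1, whose motif stands in the Bcl2l11 window, had differences of −0.08 and −0.02. None of these genes passed the adjusted threshold in limma. The 9 outer membrane partners, among them the Vdac channels, had a median of −0.01, and 0 had an unadjusted p under 0.05 in limma.

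**Figure D4:**
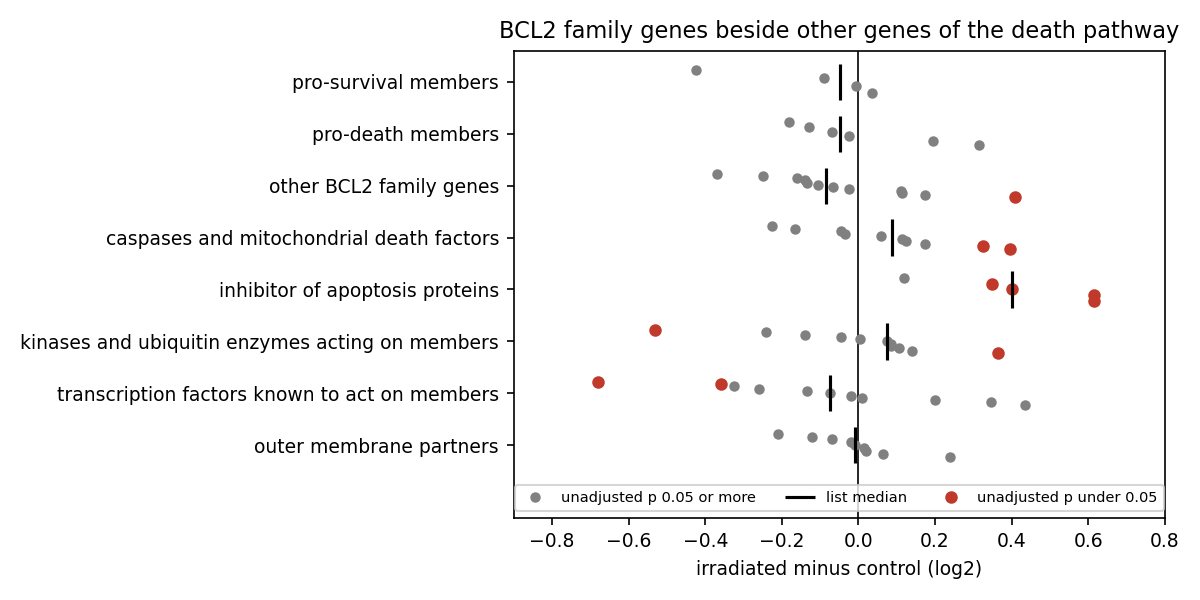
Irradiated minus control difference (log2) of each gene in the BCL2 family and in 6 lists of related genes, with red points for an unadjusted limma p under 0.05, grey points for the others and black bars for list medians. The inhibitors of apoptosis proteins lie furthest right, with a median of 0.40, and both member classes have a median of −0.05.

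The genes whose pattern over the 4 arrays was most like that of Bcl2l1 were Lilra6, Tspan5 and Ddx18, at Euclidean distances of 0.0218 to 0.0260 after subtraction of each gene's mean. For Bcl2l11 they were Pnkd, Bicra and Hs3st1, at distances of 0.0166 to 0.0296. Within a distance of 0.1 there were 88 genes for Bcl2l1 and 160 for Bcl2l11, so 4 arrays gave many near neighbours.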

How the data were processed

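Total RNA (300 ng per sample) was labelled with biotin and hybridised to 1-colour arrays, per the labels' protocols. The deposited values are log2 probe set intensities from RMA, which the authors ran, per the submitters' processing notes. RMA corrects background, normalizes across arrays and summarises probes. The RMA version, genome build and annotation behind it were not given in the sources used here. Since normalization brings the arrays to a similar distribution, shifts shared by most genes are lost. As a separate limit of arrays, folds of dim genes come out too small. The table held 35556 probe sets on 4 arrays, to 2 decimals, and 0 columns of other samples. No slide or scan date was used here.

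Probe sets were named from the platform annotation, with symbols updated through Entrez identifiers in RefSeq (GRCm38.p6). Of them, 21789 had 1 symbol, 1621 several and 12146 none listed; 21698 matched RefSeq. Probe sets with 1 symbol were used, the brightest by overall mean for the 999 genes with more than 1. Irradiated and control arrays were compared with limma 3.58.1 in R 4.3.3 (lmFit, eBayes, two-sided, Benjamini-Hochberg over 19938 genes; 2 residual and 3.48 prior degrees of freedom). Tested on 20 simulated data sets of as many genes, it called 39.6% where the true log2 change was 1 and 94.65% where it was 2, and 145 of its 2830 calls were false. The simulation drew its noise from limma's own fitted variance model, so it does not check that model. It gave a gene the same spread on all arrays, whereas the real irradiated arrays differed from each other more than the controls did. These rates therefore may not hold for the real arrays. The number of arrays limits the precision.

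Members, lists, tests and alternatives were chosen with earlier results of these data known. All members are named. From each pathway list, genes at an unadjusted p under 0.05 are named, up to 6 by smallest p, and from each marker list up to 3. Elf5, Cdh1, Eomes, Pmaip1, Bbc3, Casp8, Foxo1, Foxo3, Krt8 and the 5 motifs were chosen after their values or sequences were seen. Promoters come from RefSeq tables and 9 of 10 members matched. Alternatives were filters on dim genes, quantile normalization, median centring, averaging a gene's probe sets, a replicate block, eBayes with trend, all annotated probe sets and leaving out each array.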

Additional observations from a re-analysis of the deposited data

How the results depend on the processing

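Under 12 alternatives 0 members passed the adjusted threshold in limma. Bcl2l1 and Bcl2l2 were lower, and Bid and Bcl2l11 higher, under all 12, and Bmf was lower in the 11 that kept it. For Bcl2l1, Bid and Bcl2l11, whose arrays did not overlap, leaving out 1 array could not turn the sign. The filters, the replicate block and eBayes with trend leave a member's difference unchanged, so a kept sign is no separate support. At an unadjusted p under 0.05 there was 1 member (Bcl2l1) with the filter at the 25th percentile, quantile normalization, the replicate block or eBayes with trend, where 12.6%, 10.8%, 8.55% and 10.7% of all genes passed. There were between 0 and 4 when 1 array was left out, where 1.91% to 29.7% passed. Small differences turned sign: Bad to 0.0162 with quantile normalization and 0.01 with median centring, and Mcl1 to 0.03 with median centring. When 1 array was left out, the difference ran from −0.145 to 0.095 for Bad, from −0.09 to 0.08 for Mcl1, from −0.49 to 0.23 for Bak1, from −0.03 to 0.1 for Bcl2 and from −0.235 to 0.095 for Bik. Causes were not tested. With the filter at the median, which left out Bad and Bmf, the pro-death median was 0.0625 and the pro-survival minus pro-death difference −0.11, against 0 in the full set; with quantile normalization that difference was −0.0409. When 1 array was left out it ran from −0.07 to −0.01, the pro-survival median from −0.12 to 0.01 and the pro-death median from −0.0675 to 0.0425. Over all genes, 1 passed the adjusted threshold, against 0 with the replicate block, 6 among all annotated probe sets and 0 to 0 in fits without 1 array; the count at an unadjusted p under 0.05 with 1.5-fold was 473, and 315 to 1558 without 1 array. The labels give the groups the same replicate numbers but no shared origin, and the deviations of same-numbered arrays correlated with r = 0.068 across genes, so the replicate block was not taken as a pairing. With 2 arrays a group, member intervals had half-widths of 0.29 to 0.61 on the log2 scale.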

Other observations

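Ddit3, which encodes CHOP, a stress factor known to act on Bcl2l11, was singled out after its values were seen. It measured 7.70 and 9.16 in irradiated cells, against 8.00 and 7.99 in control cells. Irradiated replicate 2 stood above the other 3 arrays for Ddit3 and was also the array with the highest Bcl2l11 value (8.34). Its log2 difference was 0.44 (limma 95% interval −0.70 to 1.57, adjusted p = 0.759), and the relation to Bcl2l11 was not tested.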
